A study of Mus musculus with 20 samples.

Results

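UCP1-independent futile cycle genes are described here in adipose tissue of mice that lost α4 (Igbp1) in adipocytes. They are 10 of the 25219 genes in the expression table, taken by gene name. Gatm, Gamt, Slc6a8, Ckb, Ckmt1, Ckmt2 and Alpl belong to creatine cycling, Atp2a2 and Ryr2 to calcium cycling, and Gk to glycerol cycling. The table lists 9 of them under these symbols and 1, Gk, under the older symbol Gyk. RNA-seq was carried out on whole inguinal white adipose tissue (iWAT) and whole interscapular brown adipose tissue (BAT) of male mice on a mixed C57Bl/6 background, with 5 libraries in each of 4 groups. Ai-α4KO mice carry floxed α4 alleles and a tamoxifen-inducible Cre driven by the Adiponectin promoter (Adiponectin-CreERT2), so that deletion is directed to adipocytes and the other cells of the tissue keep the gene. Control mice, which the labels call WT, carry the floxed alleles without the Cre. Mice of both genotypes received tamoxifen at 100 mg/kg in 5 injections over 6 days from 2 months of age, and tissues were taken 1 week after recombination. The labels do not say whether the same mice gave both tissues.

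A futile cycle spends ATP, or the energy stored in an ion gradient, without net work and so releases heat. UCP1 does this in brown and beige fat by letting protons back across the inner mitochondrial membrane, and the cycles described here are alternatives that do not need it. In the creatine cycle, GATM and GAMT make creatine, SLC6A8 imports it, creatine kinases phosphorylate it with ATP, and tissue-nonspecific alkaline phosphatase, the product of Alpl, can release the phosphate again. In the calcium cycle, SERCA2, the product of Atp2a2, pumps calcium into the endoplasmic reticulum with ATP while channels such as RYR2 let it out. In the glycerol cycle, glycerol freed by lipolysis is phosphorylated again by glycerol kinase, the product of Gk, and re-enters triglyceride. Muscle uses several of the same genes for contraction, above all Ckmt2 and Atp2a2.

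Library totals ranged from 24023371 to 50384446 expected counts. Levels are given as CPM, counts scaled to a common library size with TMM factors, and the levels of different genes are compared only as FPKM, a level per transcript length. Ratios of a pair of genes in CPM are compared between groups only, where the lengths cancel. Igbp1 fell from 57.5 to 76.6 CPM in the Control libraries of iWAT to 10.1 to 11.1 in the Ai-α4KO ones, and from 85.4 to 105.0 CPM to 13.7 to 25.2 among those of BAT. Adipocyte markers were present in every library, their 8 genes summing to 22203 to 31234 CPM in Control iWAT, 13501 to 18752 in Ai-α4KO iWAT, 22199 to 26884 in Control BAT and 14049 to 17708 in Ai-α4KO BAT. Skeletal muscle markers (12 genes, none at 0 throughout) differed between libraries far more. Their sum was 6.18 to 184 CPM in 8 iWAT libraries and 7464 and 6027 CPM in the other 2, Control iWAT 4 and Ai-α4KO iWAT 1. In BAT the sum ran from 1039 to 10606 CPM among Control libraries and from 14587 to 51176 CPM among Ai-α4KO ones, with no overlap. A skeletal muscle score from these markers is used below as a covariate. In BAT it is tied to genotype, so a call kept or lost under it does not tell muscle RNA from genotype. B cell markers (6 genes) summed to 445.5 and 178 CPM in Control iWAT 1 and 4 and to at most 12.01 CPM in every other library. In this whole-tissue RNA, fewer cells of a type and less RNA per cell cannot be told apart.

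The region just upstream of the annotated start is shown for Gatm and Gk, which rose in both depots, and for Ckb, the member with the smallest p-value for a difference between the depots in the effect of genotype. Each run holds the 250 bases before the start in RefSeq's GRCm38.p6, on the minus strand and written 5′ to 3′, at chr2:122611278-122611527 for Gatm, chrX:85776820-85777069 for Gk and chr12:111672339-111672588 for Ckb. Capitals mark matches to the searched motifs.
Gatm: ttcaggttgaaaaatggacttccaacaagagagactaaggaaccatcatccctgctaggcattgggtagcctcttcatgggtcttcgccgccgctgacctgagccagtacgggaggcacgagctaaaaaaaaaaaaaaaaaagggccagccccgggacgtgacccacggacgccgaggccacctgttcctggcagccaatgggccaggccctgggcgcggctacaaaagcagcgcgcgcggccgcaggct
Gk: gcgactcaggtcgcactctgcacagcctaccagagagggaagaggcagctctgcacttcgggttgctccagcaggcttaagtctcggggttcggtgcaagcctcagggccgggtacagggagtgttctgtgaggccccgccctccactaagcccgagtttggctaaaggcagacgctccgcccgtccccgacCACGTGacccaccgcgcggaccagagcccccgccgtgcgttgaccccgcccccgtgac
Ckb: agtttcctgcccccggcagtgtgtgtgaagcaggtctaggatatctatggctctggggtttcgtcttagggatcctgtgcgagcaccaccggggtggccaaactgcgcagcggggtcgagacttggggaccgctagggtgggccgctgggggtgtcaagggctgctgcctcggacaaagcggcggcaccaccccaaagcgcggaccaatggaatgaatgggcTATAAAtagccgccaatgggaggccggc
Promoters of 300 bases (250 before the start and 50 after it) matched 8 of the 10 members and gave 10 promoters, since Alpl and Ckmt1 have 2 each. The 5 motifs were searched on both strands. The E-box CACGTG occurred in 7.15% of all 32851 promoters and, among the members, in that of Gk, beginning 58 bases upstream of the start. The TATA box TATAAA occurred in 13.6% of all promoters and, among the members, in that of Ckb, 28 bases upstream. On the opposite strand it matched a promoter of Ckmt1 (31 bases upstream) and of Alpl (192 bases upstream). The muscle E-box CAGCTG occurred in 16.3% of all promoters and in those of Ckmt1, Ckmt2 and Alpl. The estrogen-related receptor element TCAAGGTCA (0.423% of all promoters) and the cAMP response element TGACGTCA (1.79%) had no match in a member promoter. The window of Gatm was 60.7% G or C with 22 CpG, that of Gk 65.7% with 23 and that of Ckb 63.0% with 22, against medians of 52.7% and 7 over all promoters. Ckmt2, at 53.7% and 4 CpG, was near those medians.

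More members rose than fell on loss of α4 in both depots. A gene was called changed at an adjusted p below 0.01 in edgeR's quasi-likelihood test and a fold of at least 2, over all genes tested. In iWAT, 2 of the 9 members tested rose (Gatm and Gk) and none fell. Over all 14604 genes tested in iWAT, 11.3% rose and 10.7% fell, and nothing particular to the members is read from 2 of 9. In BAT, 5 of 9 rose (Gatm, Gamt, Ckmt2, Atp2a2 and Gk) and none fell, where 18.2% of 14344 genes rose and 13.3% fell. DESeq2 also called 2 and 5 members, all higher. Without the requirement on fold, 3 members passed in iWAT and 6 in BAT, against 40.3% and 49.8% of all genes, and the same numbers had an unadjusted p below 0.05, of which Ckb in BAT was the 1 lower. The libraries of the 2 genotypes did not overlap for 3 members in iWAT and 6 in BAT, against 39% and 47.6% of all genes. The median log2 fold change of the tested members was 0.33 in iWAT and 1.15 in BAT, beside 0.01 and −0.03 over all genes. Ckmt1 was too low to be tested in any comparison.

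**Figure D1:**
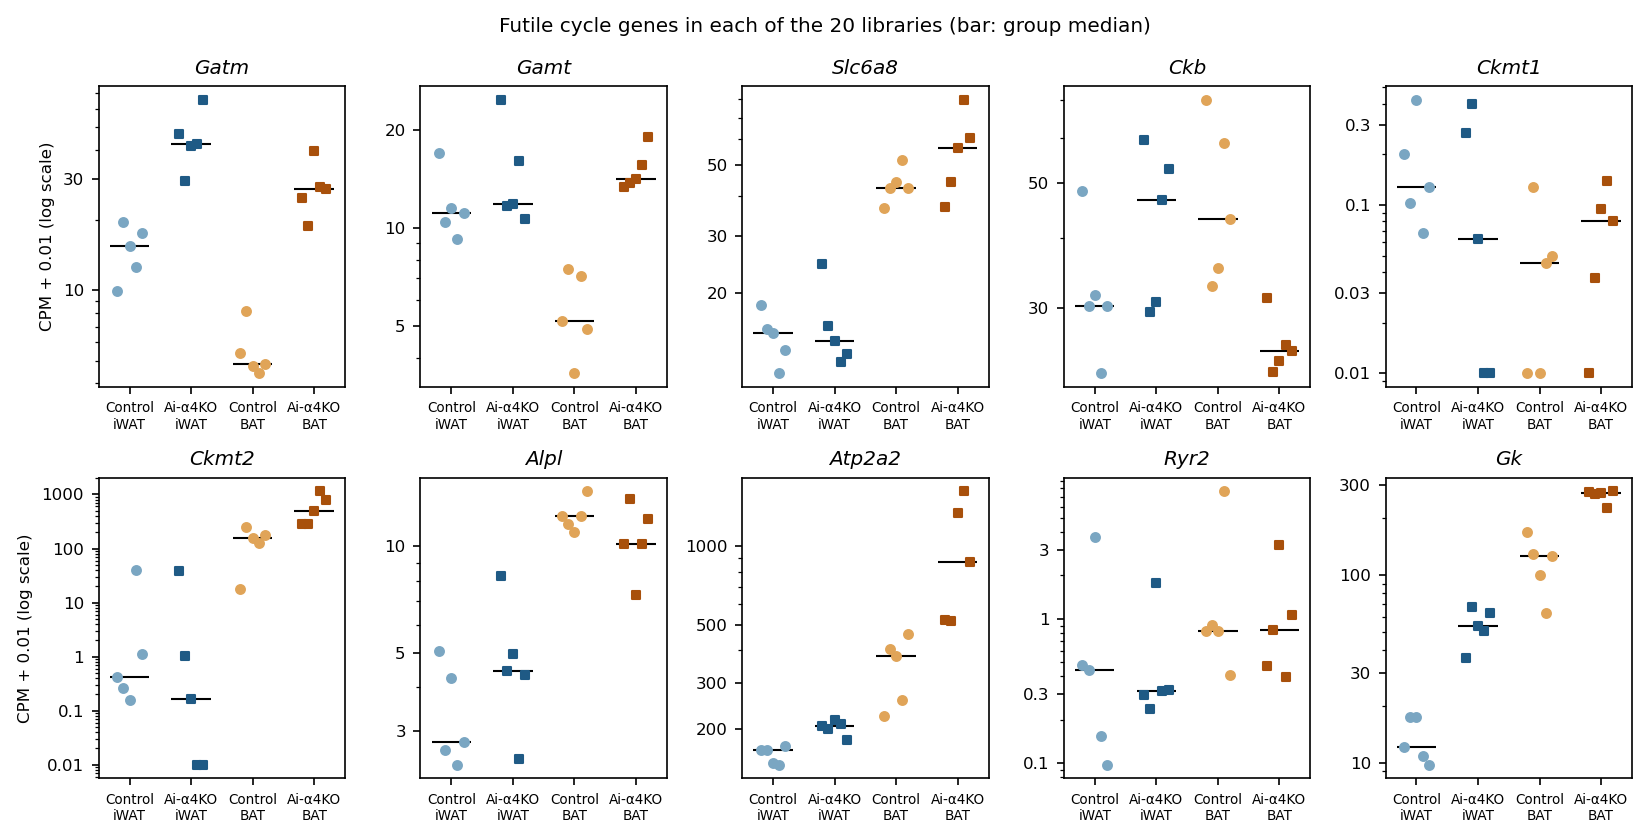
CPM of each of the 10 genes in the 20 libraries, drawn on log axes as CPM + 0.01, with circles for Control, squares for Ai-α4KO and a bar at the group median. The squares of Gatm and Gk lie above the circles in both depots, those of Gamt, Ckmt2 and Atp2a2 do so in BAT, and those of Ckb lie below the circles in BAT.

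Creatine synthesis begins with Gatm, the mitochondrial enzyme that makes guanidinoacetate from arginine and glycine. Gatm (Entrez 67092, chr2:122594473-122611277 in mm10, minus strand) was 9.98, 12.6, 15.5, 17.6 and 19.7 CPM in the 5 Control iWAT libraries. In Ai-α4KO iWAT it was 29.5, 41.6, 42.2, 46.9 and 65.7 CPM. Every Ai-α4KO iWAT library was thus above every Control one. Without the 2 muscle-rich iWAT libraries the log2 difference of Gatm was 1.505, and with a B cell score as a covariate 1.435, both still called. Control BAT held 4.41, 4.71, 4.82, 5.37 and 8.14 CPM and Ai-α4KO BAT 18.9, 24.9, 27.1, 27.7 and 39.7 CPM, again without overlap. Gatm rose by 1.58 on the log2 scale in iWAT (SE 0.229, 2.99-fold, edgeR adjusted p = 0.000166). In BAT it rose by 2.30 (SE 0.225, 4.94-fold, edgeR adjusted p = 3.52e-06), the largest fold of any tested member in that depot. With the skeletal muscle score as a covariate the BAT value was 2.05 (edgeR adjusted p = 0.000393).

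Gamt methylates guanidinoacetate to creatine in the second step. Gamt (Entrez 14431, chr10:80258151-80260968) was 9.23, 10.4, 11.1, 11.5 and 17.0 CPM in Control iWAT. The Ai-α4KO libraries of this depot held 10.6, 11.7, 11.8, 16.0 and 24.7 CPM, and the ranges overlapped. Control BAT, at 3.58, 4.90, 5.19, 7.12 and 7.47 CPM, was the lowest group, and Ai-α4KO BAT held 13.3, 13.7, 14.1, 15.6 and 19.01 CPM. The log2 difference was 0.33 in iWAT (SE 0.254, edgeR adjusted p = 0.288), and in BAT Gamt rose by 1.39 (SE 0.203, 2.62-fold, edgeR adjusted p = 9.24e-05). Ai-α4KO BAT therefore stood at a mean of 15.1 CPM ± 2.32 (SD, n = 5), beside 14.97 ± 5.81 in Ai-α4KO iWAT. The row Bc1, placed on the same strand over an interval that covers the whole of Gamt, had 0 counts in every library.

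Within a library, the ratio of Gatm to Gamt in CPM was also higher in Ai-α4KO. Its log2 value averaged 0.34 ± 0.646 (SD, n = 5) for Control iWAT but 1.62 ± 0.644 for Ai-α4KO iWAT, a difference of 1.28 (exact permutation p = 0.0079, adjusted over 3 ratios 0.0238). The BAT averages were −0.03 ± 0.399 for Control and 0.84 ± 0.411 for Ai-α4KO, a difference of 0.87 (exact permutation p = 0.0079, adjusted 0.0119). The value 0.0079 is the smallest that 252 arrangements of 5 against 5 allow, two-sided.

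Markers of other cell types also differed between genotypes. The 4 macrophage markers in the table summed to 256 to 554 CPM in Control iWAT against 1225 to 1613 in Ai-α4KO iWAT, and to 49.8 to 112.5 against 569.5 to 1030.0 CPM in BAT, with all 4 higher in both depots. The 4 neutrophil markers summed to 18.6 to 82.8 against 135.5 to 447 CPM in iWAT and to 11.4 to 34.1 against 191 to 340.2 CPM in BAT, with 3 of 4 higher in iWAT and 4 of 4 in BAT. The 4 endothelial markers summed to 334 to 437.5 against 197 to 239 CPM in iWAT and to 630 to 863 against 235 to 303 CPM in BAT, with 2 and 3 of them lower. The sum of the 4 smooth muscle markers overlapped in iWAT and was 155 to 378 against 535 to 1763 CPM in BAT, where 1 of them rose and 2 fell. Their part in the values of Gatm, Gamt and Gk was not tested.

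Creatine uptake runs through Slc6a8, the plasma membrane creatine transporter. Slc6a8 (Entrez 102857, chrX:73673133-73682500) ran from 11.3 through a median of 15.03 to 18.4 CPM in Control iWAT. The lowest, median and highest Ai-α4KO iWAT values were 12.2, 14.1 and 24.6 CPM. The corresponding values stood at 36.6, 42.5 and 51.8 CPM for Control BAT, and at 36.9, 56.2 and 79.7 CPM for Ai-α4KO BAT. The genotypes overlapped in both depots. The log2 difference was 0.11 in iWAT (SE 0.208, edgeR adjusted p = 0.665) and 0.32 in BAT (SE 0.189, edgeR adjusted p = 0.161). The 2 highest Ai-α4KO BAT values, 79.7 and 60.7 CPM, came from libraries 4 and 5, which also had the 2 highest muscle marker sums, 51176 and 29672 CPM.

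Creatine kinases move phosphate between ATP and creatine, with CKB in the cytosol, the muscle form CKM beside it, and CKMT1 and CKMT2 in mitochondria. Ckb (Entrez 12709, chr12:111669355-111672338, minus strand) was 23.0, 30.3, 30.3, 31.7 and 48.3 CPM in Control iWAT. It reached 29.5, 30.8, 46.6, 53.0 and 59.7 CPM in Ai-α4KO iWAT, and these groups overlapped. The BAT values were 32.9, 35.3, 43.2, 58.7 and 70.2 CPM for Control and 23.2, 24.2, 25.2, 25.9 and 31.3 CPM for Ai-α4KO. Every Ai-α4KO BAT library was below every Control BAT library, which made Ckb the 1 member lower without overlap. The log2 difference was −0.93 in BAT (SE 0.202, 1.90-fold higher in Control, edgeR adjusted p = 0.00171), short of the 2-fold limit, and 0.42 in iWAT (SE 0.237, edgeR adjusted p = 0.157). With the skeletal muscle score as a covariate the BAT difference of Ckb was −0.40 (edgeR adjusted p = 0.200).

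Ckmt2, the sarcomeric mitochondrial creatine kinase (Entrez 76722, chr13:91853387-91876885), differed widely between libraries. In Control iWAT it was 0.150, 0.249, 0.402, 1.08 and 40.4 CPM, and in Ai-α4KO iWAT it was 0, 0, 0.158, 1.003 and 38.4 CPM. A count of 0 allows up to 0.0537 and 0.0778 CPM in those 2 libraries, counting error only. The 2 high iWAT values belonged to Control iWAT 4 and Ai-α4KO iWAT 1, the 2 libraries high in skeletal muscle markers. Control BAT held 17.9, 129, 156, 180.5 and 254 CPM, the lowest in the library with the lowest BAT muscle sum (1039 CPM), and Ai-α4KO BAT held 279, 282, 503, 791 and 1152 CPM.

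Ckmt2 rose in BAT by 1.996 on the log2 scale (SE 0.580, 3.99-fold, edgeR adjusted p = 0.00979), close to the threshold. In iWAT the log2 difference was −0.11 with an SE of 1.92 (edgeR adjusted p = 0.968). Over the same BAT libraries 9 of 12 skeletal muscle markers rose, Tnnt3 by 2.36 and Acta1 by 1.94. With the skeletal muscle score as a covariate the BAT difference of Ckmt2 was −0.31 (edgeR adjusted p = 0.248). The call was also lost on leaving out any of 7 single libraries, Control BAT 2, 3, 4 or 5 and Ai-α4KO BAT 3, 4 or 5. In 1 fit of all 20 libraries the BAT value of Ckmt2 was 2.03 and not called (edgeR adjusted p = 0.244).

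**Figure D2:**
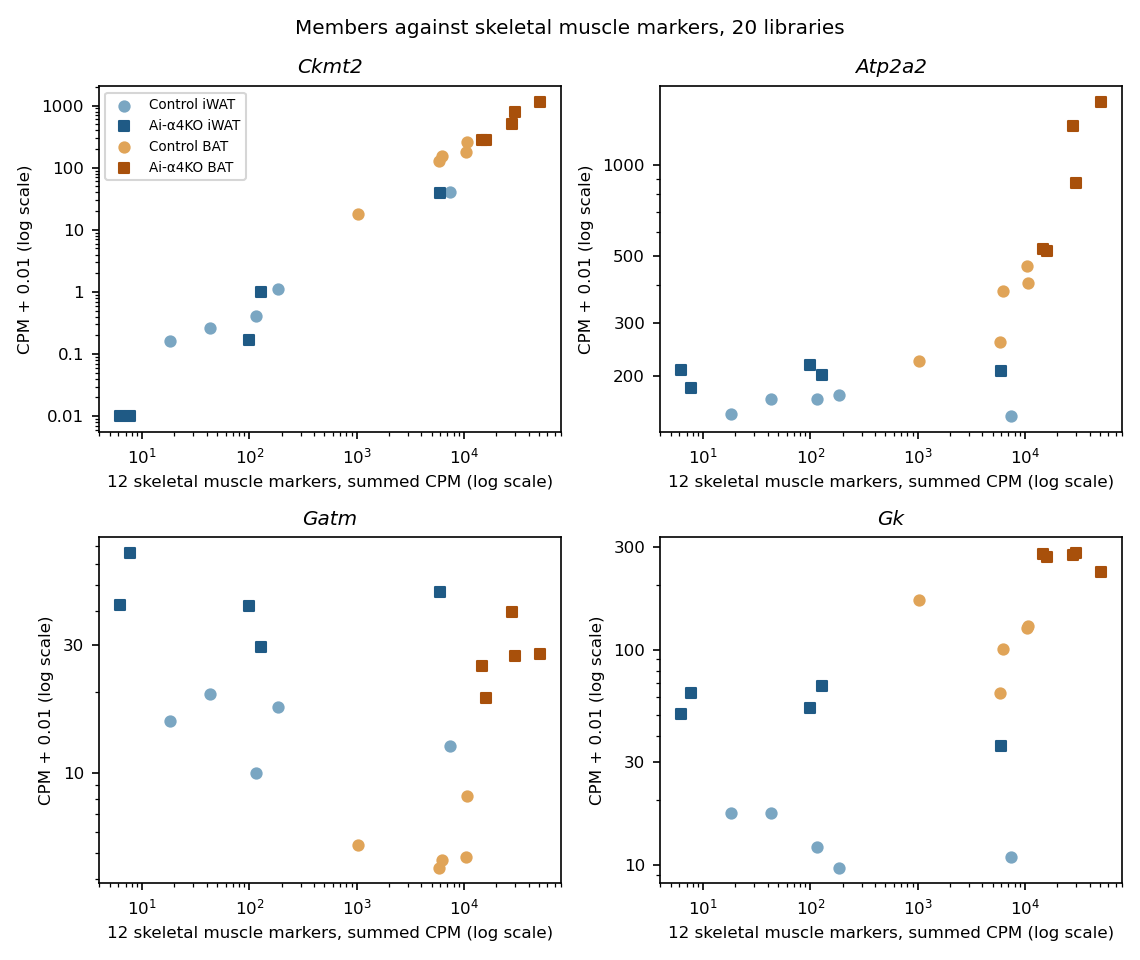
CPM + 0.01 of Ckmt2, Atp2a2, Gatm and Gk (vertical, log scale) against the summed CPM of 12 skeletal muscle markers (horizontal, log scale) in 20 libraries, 1 point each. Ckmt2 rises along the markers through both depots, including the 2 iWAT libraries at 7464 and 6027 CPM, while Gatm and Gk in those 2 libraries lie inside or at the edge of the range of their own genotype.

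Ckmt1, the ubiquitous mitochondrial creatine kinase (Entrez 12716, chr2:121358641-121363737), had at most 17 counts in any library and at most 0.413 CPM. It was at 0 counts in 2 Ai-α4KO iWAT, 2 Control BAT and 1 Ai-α4KO BAT library, where up to 0.137 CPM remains possible. Fitted without the filter on low counts, its log2 difference was −0.30 in iWAT (edgeR adjusted p = 0.836) and 0.48 in BAT (edgeR adjusted p = 0.694). A difference of Ckmt1 was not detectable at this depth.

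Per transcript length, Ckb made up a smaller share of creatine kinase mRNA in Ai-α4KO BAT than in Control BAT. Of the summed FPKM of Ckb, Ckm, Ckmt1 and Ckmt2, Ckb made up 9.32% ± 12.4 (SD, n = 5, range 2.24 to 31.3%) in Control BAT and 0.895% ± 0.464 (0.394 to 1.61%) in Ai-α4KO BAT. The ranges did not overlap (exact permutation p = 0.0079, adjusted over 4 genes 0.0318). The Control mean rested on Control BAT 1 at 31.3%, the BAT library with the lowest muscle marker sum, and was 3.83% ± 1.74 (2.24 to 6.28%) without it, still without overlap. On leaving out any 1 of the 5 Ai-α4KO BAT libraries the ranges still did not overlap, but the exact permutation p adjusted over the 4 genes was 0.206 to 0.413. Ckm, the muscle form, made up 77.1% ± 9.25 and 82.9% ± 3.12 (exact permutation p = 0.190, adjusted 0.381). Ckmt2 made up 13.6% ± 3.69 and 16.2% ± 3.36 (exact permutation p = 0.302, adjusted 0.402). The log2 ratio of Ckmt2 to Ckb in CPM moved from 1.26 ± 1.92 to 4.31 ± 0.953 in BAT, by 3.05 (exact permutation p = 0.0079, adjusted over 3 ratios 0.0119). In iWAT that ratio differed by −1.497 (exact permutation p = 0.524, adjusted 0.691). The iWAT difference was −2.937 without Ai-α4KO iWAT 1 and −0.07 without Control iWAT 4, the ends of its range on leaving out 1 library.

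In iWAT, Ckb was the main creatine kinase of most libraries. It made up 60.8% ± 36.3 of the summed FPKM of Control libraries and 69.5% ± 37.4 of Ai-α4KO ones (exact permutation p = 0.667, adjusted 0.889). The exceptions were Control iWAT 4 at 2.26% and Ai-α4KO iWAT 1 at 7.41%, where Ckm made up 93.8% and 87.8%. The part of muscle RNA in these shares was not tested.

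**Figure D3:**
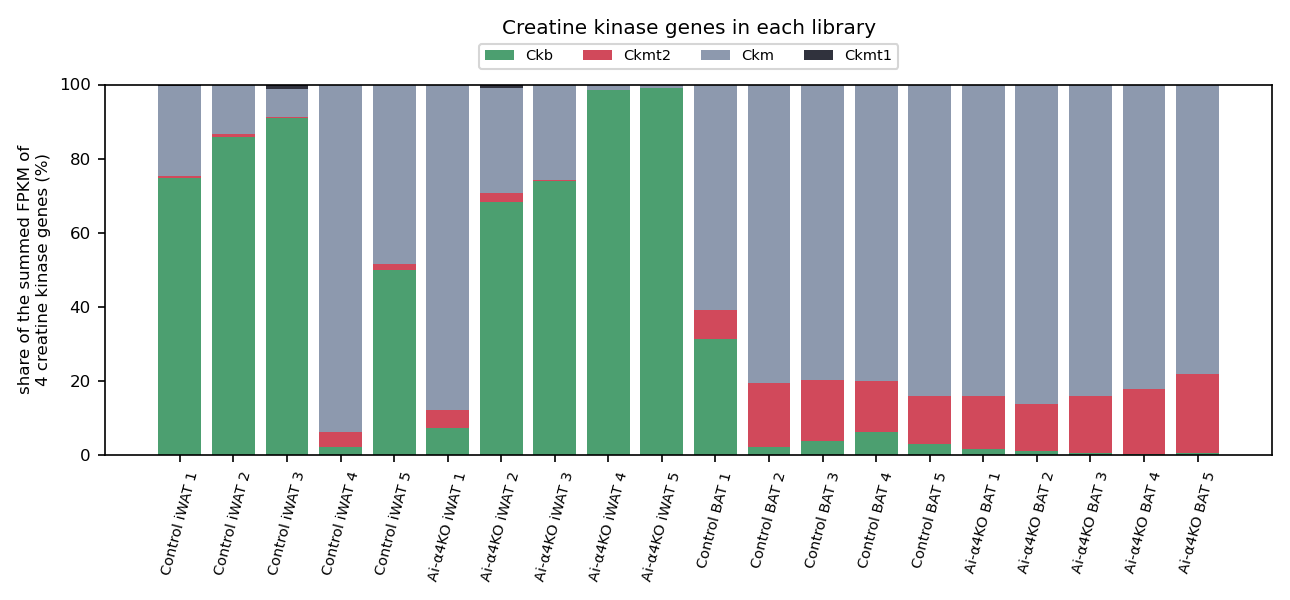
Stacked bars of the share of Ckb, Ckm, Ckmt1 and Ckmt2 in their summed FPKM (vertical, percent, from 0 to 100) in each of the 20 libraries. Ckb fills from 49.9 to 99.2% of 8 iWAT bars and at most 31.3% of a BAT bar, and Ckm fills most of every BAT bar and of Control iWAT 4 and Ai-α4KO iWAT 1.

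Alpl encodes tissue-nonspecific alkaline phosphatase, which in the creatine cycle hydrolyses phosphocreatine. Alpl (Entrez 11647, chr4:137741731-137796384) had a lowest, median and highest value of 2.40, 2.78 and 5.06 CPM in Control iWAT. These were 2.49, 4.44 and 8.26 CPM after loss of α4. The brown depot was higher, at 10.97, 12.2 and 14.3 CPM for Control and 7.28, 10.1 and 13.6 CPM for Ai-α4KO. The genotypes overlapped in both depots, with log2 differences of 0.51 in iWAT (SE 0.326, edgeR adjusted p = 0.209) and −0.24 in BAT (SE 0.169, edgeR adjusted p = 0.234). Leaving out 1 library at a time, the iWAT value ranged from 0.234 to 0.681, and without the 2 muscle-rich libraries it was 0.126. Under library size scaling and under limma on log2 FPKM the BAT value was 0 or slightly above it, from 0.003 to 0.032.

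Calcium cycling rests on Atp2a2, the SERCA2 pump, which is abundant in slow and cardiac muscle as well as in most other cells. Atp2a2 (Entrez 11938, chr5:122453513-122502225) was 147, 149, 167, 167 and 172 CPM in Control iWAT. The Ai-α4KO iWAT libraries held 182, 200.3, 206, 209 and 216 CPM. The groups did not overlap, although the difference was small. Control BAT held 224, 258, 382, 407 and 462 CPM and Ai-α4KO BAT 518, 524.5, 873, 1344 and 1623 CPM, also without overlap. The log2 difference in iWAT was 0.33 (SE 0.0901, 1.26-fold, edgeR adjusted p = 0.00854), below the 2-fold limit. In BAT Atp2a2 rose by 1.46 (SE 0.339, 2.76-fold, edgeR adjusted p = 0.00259).

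The BAT libraries ordered by Atp2a2 largely followed their muscle marker sums. The 2 highest Ai-α4KO BAT values, 1623 and 1344 CPM, came from libraries with marker sums of 51176 and 28003 CPM, and the lowest Control value, 224 CPM, from the library at 1039 CPM. With the skeletal muscle score as a covariate the BAT difference of Atp2a2 was 0.45 (edgeR adjusted p = 0.337). Slow and cardiac muscle markers (5 genes) summed to 31.8 to 872 CPM in Control BAT and 1102 to 7543 CPM in Ai-α4KO BAT. In iWAT, by contrast, the 2 libraries high in skeletal muscle markers held 147 CPM of Atp2a2 (Control, the lowest of its group) and 206 CPM (Ai-α4KO, the median of its group).

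Ryr2, the calcium release channel best known from heart muscle (Entrez 20191, chr13:11553103-12106945), was at most 7.65 CPM. Its group medians were 0.435 CPM in Control iWAT, 0.304 in Ai-α4KO iWAT, 0.820 in Control BAT and 0.829 in Ai-α4KO BAT. In each group 1 library stood above the rest, at 3.68, 1.76, 7.65 and 3.26 CPM. The log2 difference was −0.72 in iWAT (SE 0.969, edgeR adjusted p = 0.552) and −0.89 in BAT (SE 0.831, edgeR adjusted p = 0.366), and its sign depended on single libraries in both depots. The log2 ratio of Atp2a2 to Ryr2 differed by 0.39 in iWAT and 1.75 in BAT (exact permutation p = 0.690 and 0.119, adjusted 0.691 and 0.119).

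Glycerol kinase phosphorylates free glycerol, which white adipocytes are classically held to do little of. Gk (Entrez 14933, chrX:85701937-85776819, minus strand) was 9.76, 10.9, 12.2, 17.5 and 17.6 CPM in Control iWAT. After loss of α4 the same depot held 35.9, 50.4, 53.4, 62.8 and 67.5 CPM. The lowest Ai-α4KO library was above the highest Control library. Control BAT held 63.1, 100.1, 125.5, 129 and 169 CPM, and Ai-α4KO BAT held 228.5, 269, 275, 278 and 279.5 CPM, the tightest group of this gene relative to its mean. Gk rose by 1.99 on the log2 scale in iWAT (SE 0.214, 3.97-fold, edgeR adjusted p = 2.28e-05), the largest change of any tested member in that depot. In BAT it rose by 1.15 (SE 0.211, 2.21-fold, edgeR adjusted p = 0.000517). Without the 2 muscle-rich iWAT libraries the iWAT value of Gk was 2.03, and with a B cell score as a covariate 1.85, both still called. The order of the groups ran Ai-α4KO BAT, Control BAT, Ai-α4KO iWAT and Control iWAT, and Control BAT and Ai-α4KO iWAT were the neighbours that overlapped.

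Gk stayed called in BAT with the skeletal muscle score as a covariate, at 1.48 (edgeR adjusted p = 0.00143). Gamt did so too, at 1.19 (edgeR adjusted p = 0.00788). Over all genes that covariate took the BAT calls from 2614 higher and 1910 lower to 1716 and 1598. Muscle marker sums did not overlap between genotypes in BAT, so a call kept under it does not tell muscle RNA from genotype. Without Control BAT 4, the lowest Control library at 63.1 CPM, the BAT change of Gk was 0.98, just under 2-fold, and 3 members were called in BAT in place of 5.

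**Figure D4:**
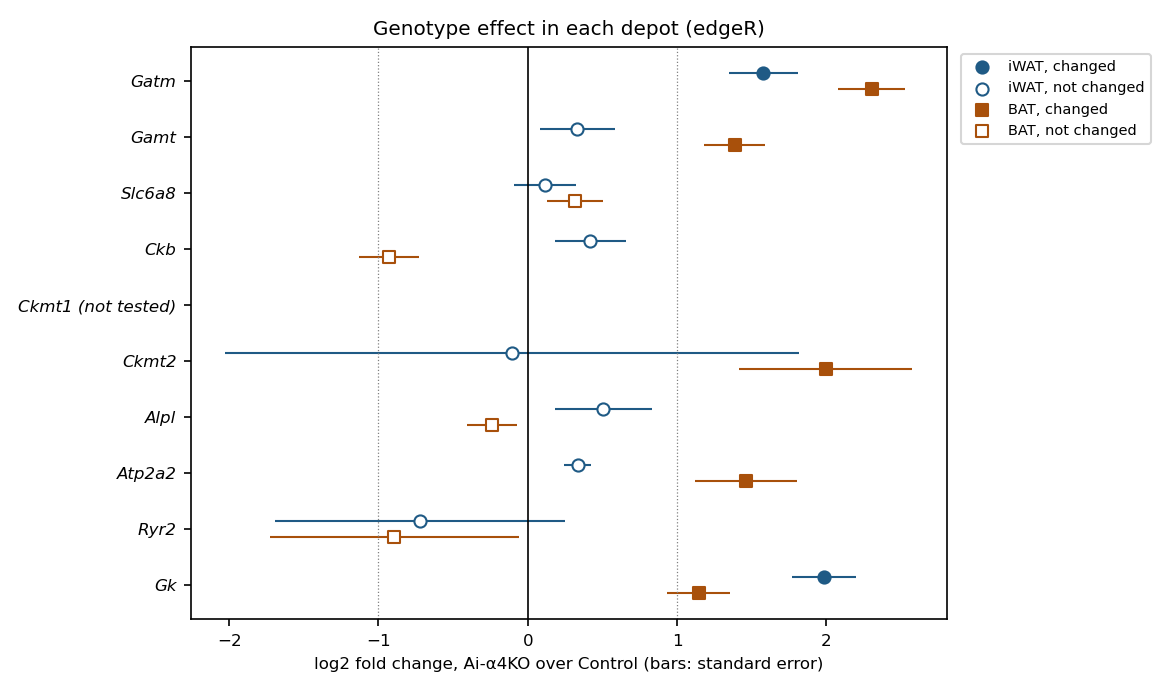
log2 fold change of Ai-α4KO over Control for the 9 tested members (horizontal) in iWAT (circles) and BAT (squares), with bars for the standard error, filled symbols for changed genes and dotted lines at −1 and 1. Gatm and Gk are filled in both depots, Gamt, Ckmt2 and Atp2a2 in BAT, and Ckb in BAT lies at −0.93 on the other side of 0 from its iWAT value of 0.42.

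Whether the genotype effect differed between depots was tested as an interaction over all 20 libraries. By edgeR, 0 of 9 members passed an adjusted p of 0.01, against 4.86% of 15230 genes, while 5 had an unadjusted p below 0.05, against 31% of genes, and DESeq2 called 3 (Ckb, Gamt and Atp2a2), against 10.8% of genes. The effect in BAT minus that in iWAT was −1.31 for Ckb (SE 0.329, edgeR adjusted p = 0.0129), the member nearest to the threshold. It was 1.08 for Gamt (SE 0.336, edgeR adjusted p = 0.0363) and 1.16 for Atp2a2 (SE 0.371, edgeR adjusted p = 0.0420). For Gk it was −0.81 (SE 0.312, edgeR adjusted p = 0.0832) and for Gatm 0.75 (SE 0.329, edgeR adjusted p = 0.128). Ckb, Gamt and Atp2a2 thus moved differently in the depots by 1 tool and not by the other, and for the remaining members neither tool called a difference.

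The members were also set against the adipocyte markers of the same library, whose mean was lower in Ai-α4KO. Of the 8 markers, 5 were called lower in iWAT and 4 in BAT, and the others were not called. The mean log2 CPM of the 8 markers was 10.54 in Control iWAT, 9.16 in Ai-α4KO iWAT, 9.71 in Control BAT and 8.61 in Ai-α4KO BAT. Relative to that mean, 5 members were higher without overlap in Ai-α4KO iWAT, each at an exact permutation p of 0.0079, the smallest possible. They were Gk (by 3.37 on the log2 scale), Gatm (2.95), Ckb (1.79), Atp2a2 (1.72) and Gamt (1.67). Of all 14604 genes tested in iWAT, 61.7% were higher without overlap on this measure, so that nothing particular to the members is read from 5 of 9. In BAT the 5 without overlap were Gatm (3.42), Ckmt2 (3.32), Gamt (2.55), Atp2a2 (2.495) and Gk (2.35), at the same p, where 48.9% of all genes tested in BAT were higher without overlap.

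Slc6a8 was higher relative to the markers by 1.47 in iWAT and 1.41 in BAT (exact permutation p = 0.0159 in each), and Alpl by 1.84 and 0.87 (exact permutation p = 0.0238 in each). For Ckb in BAT, which was lower in CPM, the relative value differed by 0.27 (exact permutation p = 0.357). Ryr2 differed by 1.32 in iWAT and 0.75 in BAT, and Ckmt2 in iWAT by 0.29 (exact permutation p = 0.206, 0.452 and 0.873). These p-values are two-sided and cover 9 members in each depot. Adjusted over those, the exact permutation p was 0.0143 for each member without overlap, 0.0238 for Slc6a8 and 0.0306 for Alpl. For the others the adjusted value ran from 0.232 to 0.873. The members were chosen with earlier results known. A shift in this measure holds the fall of the markers as well as any change of the member.

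**Figure D5:**
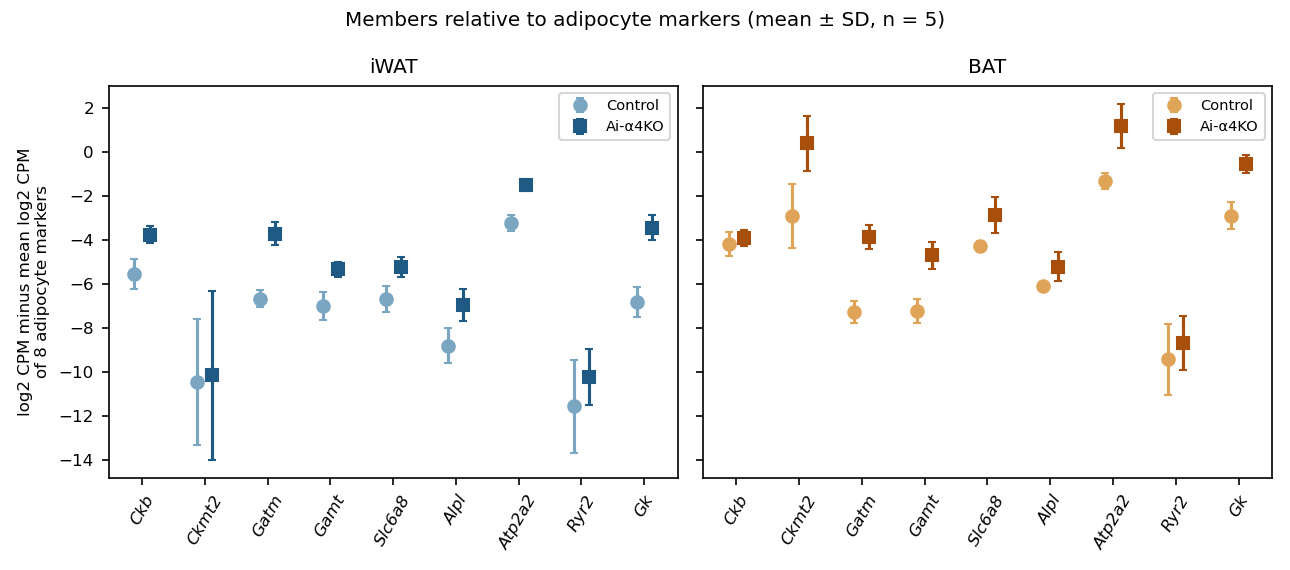
log2 CPM of each tested member minus the mean log2 CPM of 8 adipocyte markers (vertical), as mean ± SD over 5 libraries, for iWAT and BAT, with circles for Control and squares for Ai-α4KO. Squares lie above circles throughout, by 3.37 for Gk in iWAT and 3.42 for Gatm in BAT, and the pair for Ckb in BAT lies 0.27 apart.

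Depots differed in the members before any loss of α4. Between Control BAT and Control iWAT, 4 of 9 tested members were higher in BAT and 2 lower, where 7.22% and 14.7% of 14260 genes were, and 6 did not overlap, against 37.6% of genes. Higher in BAT were Gk by 3.08 on the log2 scale (8.45-fold), Alpl by 1.80 (3.48-fold), Slc6a8 by 1.53 (2.89-fold) and Atp2a2 by 1.08 (2.11-fold), with edgeR adjusted p-values from 1.11e-05 to 0.000613. Creatine synthesis went the other way, with log2 differences of −1.495 for Gatm (2.82-fold higher in iWAT, edgeR adjusted p = 0.000239) and −1.10 for Gamt (2.15-fold higher in iWAT, edgeR adjusted p = 0.00201). Ckmt2 was higher in BAT by 4.10 with an SE of 1.39 (edgeR adjusted p = 0.0280), and this was called at 8.20 without Control iWAT 4 and at 1.24 with the skeletal muscle score as a covariate. Under that covariate Gatm, Gamt and Atp2a2 lost their calls, at −1.27, −0.91 and 0.91 (edgeR adjusted p = 0.0157, 0.0846 and 0.0644), while Slc6a8, Alpl and Gk stayed called. Over all genes that covariate took the calls from 1030 higher and 2092 lower to 916 and 1400. Atp2a2 lost its call in 7 of 25 alternatives and Gamt in 4. Ckb differed by 0.52 (edgeR adjusted p = 0.0983).

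In Ai-α4KO mice 4 members were higher in BAT and none lower, where 8.4% and 3.09% of 14703 genes were, and 4 did not overlap, against 25.2% of genes. These were Gk by 2.35, Atp2a2 by 2.33, Slc6a8 by 1.85 and Alpl by 1.17 on the log2 scale, the last with overlap and an edgeR adjusted p of 0.00946. Gamt differed by 0.06 (edgeR adjusted p = 0.849) and Gatm by −0.66 (edgeR adjusted p = 0.0442). Ckmt2 differed by 6.29 with an SE of 1.81, without overlap (edgeR adjusted p = 0.0189), and was called at 11.08 without Ai-α4KO iWAT 1 (edgeR adjusted p = 4.95e-05). Its difference with the skeletal muscle score as a covariate was 1.21 (edgeR adjusted p = 0.224). With the skeletal muscle score as a covariate Atp2a2, Slc6a8 and Alpl lost their calls, at 1.93, 0.86 and 0.19 (edgeR adjusted p = 0.166, 0.199 and 0.829), and Gk stayed called at 2.83. Over all 14703 genes that covariate took the calls in this comparison from 1235 higher and 454 lower to 11 and 27, so that nothing particular to the members is read from their losses. The muscle marker sum was 6.18 to 6027 CPM in the Ai-α4KO libraries of iWAT and 14587 to 51176 CPM in those of BAT, without overlap. Both comparisons of depots share their libraries with those of genotype.

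Per length, the levels of the members in Control tissue spanned several orders of magnitude. In Control BAT the mean FPKM was 76.4 for Ckmt2, 46.8 for Atp2a2, 25.4 for Ckb, 20.1 for Gk, 8.49 for Slc6a8, 4.65 for Gamt, 3.19 for Alpl and 1.80 for Gatm, with Ryr2 and Ckmt1 at 0.0997 and 0.0185. In Control iWAT Atp2a2 and Ckb led at 25.2 and 19.97 FPKM, followed by Gamt at 11.3 and Gatm at 5.73. Ckmt2 averaged 5.27 FPKM there, nearly all from Control iWAT 4 at 25.2 FPKM. In Ai-α4KO BAT Ckmt2 reached 360.1, Atp2a2 152 and Gk 53.7 FPKM, with Ckb at 16.0.

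The remaining genes of the same cycles were taken from lists. Of 11 other genes of creatine energetics, 8 were tested. None rose in iWAT by edgeR or DESeq2. In BAT 2 rose, Ckm by 1.83 on the log2 scale and Ak1, the cytosolic adenylate kinase, by 1.43, and none fell, beside 18.2% and 13.3% of all genes. Both lost the call with the skeletal muscle score as a covariate, at −0.03 and 0.32. The list's median log2 change was −0.45 in iWAT and 0.30 in BAT. The mitochondrial ADP/ATP carrier Slc25a5, a partner of the mitochondrial kinases, stood at −0.98 in BAT (edgeR adjusted p = 3.79e-05), just under 2-fold.

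Of 21 other genes of calcium cycling, 19 were tested in iWAT, where 2 rose and 2 fell, close to the 11.3% and 10.7% of all genes. Of 20 tested in BAT, 9 rose and 3 fell, beside 18.2% and 13.3% of all genes. The genes that rose in BAT included the muscle release channel Ryr1 (by 2.03), the SERCA inhibitor Sln (4.11), the calcium buffers Casq1 and Casq2 (1.99 and 2.19), Hrc (2.18), Trdn (2.48) and Jph2 (2.17). These 7 are known from the sarcoplasmic reticulum of muscle. None was called with the skeletal muscle score as a covariate, under which their values ran from −0.52 to 0.43. This covariate is made from muscle genes and tied to genotype in BAT, so nothing is read from their losses. Over all genes it took the calls in BAT from 2614 higher and 1910 lower to 1716 and 1598. Fkbp1b, which binds ryanodine receptors, and Orai1, the plasma membrane calcium channel, rose in both depots (by 1.35 and 1.15 in iWAT and by 2.18 and 1.34 in BAT) and stayed called in BAT under that covariate. Falling genes were the inositol trisphosphate receptor Itpr2 (by 1.28 in iWAT and 2.71 in BAT) and the α1-adrenergic receptor Adra1a (by 1.74 and 2.62), with Itpr1 falling in BAT by 1.70. The list's median was −0.34 in iWAT and 1.05 in BAT.

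Gk stood apart in direction from the glycerol and triglyceride genes around it, of which none rose. Of 16 listed genes 15 were tested, and 12 fell in iWAT and 13 in BAT, with medians of −1.89 and −1.90, beside 10.7% and 13.3% of all genes. With the skeletal muscle score as a covariate 10 of the 13 stayed called in BAT, and G0s2 (edgeR adjusted p = 0.111), Agpat2 (edgeR adjusted p = 0.0409) and Dgat1 (−0.95, under 2-fold) did not. Lipases of earlier steps of lipolysis fell, Pnpla2 by 2.15 in iWAT and 2.59 in BAT and Lipe by 1.93 and 2.10. The glycerol channel Aqp7 also fell, by 1.15 and 1.73. The other sources of glycerol 3-phosphate fell further, Gpd1 by 2.94 and 2.85 and Pck1 by 3.42 and 2.91. Gpd2, which oxidises glycerol 3-phosphate, fell by 3.01 and 2.5, and Dgat2, of the last step of triglyceride synthesis, by 1.04 and 2.47. Gk5, a second glycerol kinase gene, was at 2.49 and 2.72 CPM in iWAT, a log2 difference of 0.12 (edgeR adjusted p = 0.675), and at −1.06 in BAT (edgeR adjusted p = 0.0157).

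The cycles described here can bypass the UCP1 pathway. Of 9 listed genes of that pathway 8 fell in iWAT, Ucp1 by 6.57 on the log2 scale, and 4 fell in BAT, Ucp1 by 2.39, Cidea by 2.65, Prdm16 by 1.66 and Adrb3 by 1.32, beside 10.7% of all genes in iWAT and 13.3% in BAT. The other 5 were not called in BAT, and Adrb3 lost its call there with the skeletal muscle score as a covariate, at −1.24 (edgeR adjusted p = 0.0202). No listed gene of this pathway rose in either depot, and Dio2, Elovl3 and Ppargc1a stood at 0.40, 0.36 and −0.15 in BAT. Cox7a1 and Cox8b, subunits of cytochrome oxidase, were at −1.08 and −1.19 in BAT and just missed the threshold (edgeR adjusted p = 0.0103 and 0.0121).

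For each tested member the genes with the most similar levels were sought among 13467 genes of at least 1 CPM on average, by Pearson's r of log2 CPM over the 20 libraries. The libraries fall into 4 groups that share depot, genotype and tissue makeup, so that r is given as a description. Among the 3 genes closest to Ckmt2 were Apobec2 (0.993) and Eef1a2 (0.992), and after the group means were subtracted the closest was Klhl41 (0.995), known as a muscle gene. Atp2a2 lay closest to Tecrl (0.977) and Slc6a8 to Myl2 (0.962), the latter a slow and cardiac muscle marker. Gk lay closest to Cebpb (0.948), an adipogenic and inflammatory transcription factor. Gatm lay closest to Slc9a4 (0.969), Clec4b1 (0.967) and Oip5 (0.967), of which Clec4b1 encodes a C-type lectin. Gamt lay closest to Pdlim4 (0.919), Alpl to Arhgdig (0.926) and Ckb to Cactin (0.795). After the group means were subtracted the highest r was 0.820 for Gatm (Sdc2) and 0.866 for Gk (Zfp583).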

How the data were processed

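RNA was purified from iWAT and BAT, and libraries were made with a stranded mRNA kit and sequenced as 2 × 150 bp paired-end reads. Per the labels, the submitters' processing notes name bcl2fastq 2, STAR 2.5.3a and mm10; the tool used for counting is not given in the sources used here. The authors deposited expected counts per gene, of which 76.6% of those above 0 are whole. The authors also deposited FPKM, a count per transcript length and library total. Expected counts were rounded and tested with edgeR 4.0.16 in R 4.3.3 (filterByExpr, TMM factors, quasi-likelihood test, Benjamini-Hochberg adjustment over all genes tested). Each depot, and each pair of depots, was fitted with its own 10 libraries, and the interaction with all 20. Single values (ratios, shares, levels relative to adipocyte markers) were compared with exact two-sided permutation tests over 252 arrangements. DESeq2 1.42.0, limma 3.58.1 on log2(FPKM + 1) and log2(FPKM + 0.1), other scalings, filters and thresholds, muscle and B cell scores as covariates, a replicate block and leaving out single libraries were alternatives. The edgeR fits were tested on simulated data. All 10 members are named, with the pathway genes that passed the test, the markers and the genes of most similar level. The members and lists were chosen with earlier results of these data known. The labels do not say that the replicates are separate mice, so p-values measure the spread between these samples. Limits from a count of 0 are 3 counts per library and cover counting error only. Promoter sequences came from RefSeq, GRCm38.p6; those of Slc6a8 and Atp2a2 were not analysed here. All 20 libraries were used, with totals of 24023371 to 50384446 expected counts. A few listed or similar genes are not reported here.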

Additional observations from a re-analysis of the deposited data

Results flagged for a closer look

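In 40 groups of 5 libraries (10 members in 4 groups), a single library stood far from the others of its group in 8, where chance flags about 1 in 20 groups. For Ckmt2 these were Control iWAT 4, at 40.4 CPM with the next library at 1.08, and Ai-α4KO iWAT 1, at 38.4 CPM with the next at 1.003. Both are the iWAT libraries highest in skeletal muscle markers, and the part of those markers was not tested. Ryr2 had such a library in all 4 groups, Control iWAT 3 at 3.68 CPM (next 0.466), Ai-α4KO iWAT 3 at 1.76 (next 0.311), Control BAT 4 at 7.65 (next 0.900) and Ai-α4KO BAT 3 at 3.26 (next 1.05). Gatm was high in Control BAT 2, at 8.14 CPM with the next library at 5.37. Gk was low in Ai-α4KO BAT 4, at 228.5 CPM with the next library at 269.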

How the results depend on the processing

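Of 1480 recomputed values, 1347 kept their direction and their side of the threshold, 49 lost a call, 32 gained a call and 52 changed direction. Gatm and Gk in iWAT kept their calls under all 25 alternatives, as did Gatm and Gamt in BAT under all 24. Leaving out 1 library at a time gave 2 changed members in iWAT throughout, 3 to 5 in BAT (5 with all libraries), 0 to 1 for the interaction (0), 5 to 7 for depots in Control (6) and 3 to 5 for depots in Ai-α4KO (4). Counts that moved by over 1.5 times were BAT with the muscle covariate (3) and without Control BAT 4 (3), the interaction by DESeq2 and at an adjusted p of 0.05 (3 each), the interaction with the B cell covariate and without the 2 muscle-rich iWAT libraries (1 each), and depots in Ai-α4KO with either covariate (1 each, Gk), where calls over all genes fell from 1235 higher and 454 lower to 11 and 27 with the muscle score and to 51 and 5 with the B cell score. Between depots in Control 4 members were called with either covariate (6 without), namely Slc6a8, Alpl and Gk with each, Ckmt2 with the muscle score and Gatm with the B cell score. Smaller moves included BAT with the B cell covariate (6, Ckb added) and in 1 fit of all 20 libraries (4, Ckmt2 lost), and depots in Ai-α4KO without the 2 muscle-rich libraries (5, Ckmt2 added). Over all genes the muscle covariate took the calls in BAT from 2614 higher and 1910 lower to 1716 and 1598. The cause of these moves was not tested.

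Same-numbered libraries correlated above 0.1 in at most 2 of 5 pairs of a comparison. So few pairs cannot decide whether replicate numbers mark the same mice, and the main tests were unpaired. With the replicate block, 2 members were called in iWAT, 5 in BAT and 3 between depots in Ai-α4KO, and Ckmt2 between depots in Control was called at 6.66 on the log2 scale.

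Signs that turned concern values that were not called, except Ckmt2 in BAT, at −0.307 with the muscle covariate. With that covariate Slc6a8 in BAT was −0.147, the interaction of Ryr2 0.143 and Gamt between depots in Ai-α4KO −0.671. With the B cell covariate Ckmt2 in iWAT was 3.907, its interaction −1.998 and that of Ryr2 0.127. Without the 2 muscle-rich iWAT libraries Gamt and Slc6a8 in iWAT were −0.004 and −0.182 and the interaction of Ryr2 0.097. With library size alone as the scaling, Ckmt2 in iWAT was 0.02, Alpl in BAT 0.032 and Gamt between depots in Ai-α4KO −0.104. Gamt in that comparison was −0.012 with upper-quartile factors and −0.029 and −0.027 by limma with pseudocounts of 1 and 0.1, where Alpl in BAT was 0.007 and 0.003. Relative to adipocyte markers, Ckmt2 in iWAT was −0.435 with a prior count of 0.5. Leaving out 1 library at a time, Ckmt2 in iWAT ranged from −4.863 (without Ai-α4KO iWAT 1) to 4.046 (without Control iWAT 4) and its interaction from −1.993 to 7.001 on leaving out the same libraries. Slc6a8 in iWAT ranged from −0.097 to 0.203 and Gamt between depots in Ai-α4KO from −0.038 to 0.327. Ryr2 ranged from −1.735 to 0.946 in iWAT, −1.689 to 0.654 in BAT, −1.843 to 1.403 in the interaction and −0.396 to 2.837 between depots in Control.

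Shares and ratios were recomputed leaving out 1 library at a time, chosen after seeing the data. In iWAT the genotype difference ranged from −5.852 to 24.3 percentage points for the Ckb share, −23.36 to 5.496 for Ckm, −0.321 to 0.02 for Ckmt1 and −0.821 to 0.605 for Ckmt2, and from −0.361 to 0.856 on the log2 scale for the ratio of Atp2a2 to Ryr2. That ratio in BAT ranged from 0.987 without Control BAT 4 to 2.216 without Control BAT 5. The exact permutation p adjusted over 3 ratios was 0.222 and 0.0317, the latter below the 0.05 used for shares and ratios.

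Ckb in BAT passed 2-fold without Control BAT 2 (−1.05) or 3 (−1.03) and with the B cell covariate (−1.19). Alpl between depots in Ai-α4KO lost its call in 15 of 25 alternatives. Scaling by library size alone moved the median log2 change of all genes in BAT from −0.03 to 0.23, with 3251 genes higher and 1265 lower in place of 2614 and 1910. Over all genes the interaction held 496 higher and 244 lower calls by edgeR, 1254 and 386 by DESeq2 and 178 and 84 with the replicate block. Ckmt2 and Ryr2 had no value under filters that removed them.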
